A study of Harpegnathos saltator with 18 samples.

Results

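Transcript levels in both dissected parts of the worker brain were compared with those in the ovary of gamergates in the ant Harpegnathos saltator. The libraries were taken by their tissue labels: 3 of non-visual brain, 3 of optic lobe and 3 of ovary, which makes 9 of the 18 libraries of the series. Of 20755 rows in the deposited table, 12399 reached 1 RPKM (reads per kilobase of gene model, scaled to library size) in at least 3 of these 9 libraries and were tested. A gene was called only where each brain part alone differed from ovary in the same direction.

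The brain libraries came from workers and the ovary libraries from gamergates, workers that have become egg-layers, so tissue and caste cannot be told apart in any value below. All ants were kept in plaster nests at 25 °C and 50% humidity under a 12-hour light and dark cycle and were fed live crickets. No genotype, treatment, age or number of animals per library is given in the labels, and whether replicates are separate animals is not stated there. The p-values therefore rest on the spread among these libraries alone, and that spread may be technical. In bulk tissue, fewer cells of a type and less RNA per cell cannot be told apart.

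The optic lobe receives the signals of the compound eye, and the rest of the insect brain holds, among other centres, the mushroom bodies and the antennal lobes, which handle learning and smell. Neurons and glia make up most of this tissue, and adult neurons no longer divide. The insect ovary holds dividing germ cells, nurse cells that fill the egg with RNA and protein, and the follicle cells that surround the egg and lay down its envelopes. Ovary and brain are known as tissues with very different transcript sets.

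None of the 20755 identifiers (0 matched) could be paired with the 14329 named genes of the reference. Neuronal, glial, germline and follicle-cell markers could thus not be used to check the tissue labels, and every gene below appears under its identifier alone. Library totals recovered from the RPKM steps ran from 11.3 to 15.2 M (mega) reads in non-visual brain, from 11 to 26.5 M in optic lobe and from 14.7 to 30.1 M in ovary. In a model of 1000 bases, 3 reads were worth between 0.0998 and 0.273 RPKM in the 9 libraries, a floor that covers counting error only. Each brain library correlated with the ovary libraries at 0.325 to 0.52 on average across genes, which are not independent replicates. Non-visual brain replicate 1 and optic lobe replicate 3 stood apart within their tissues: optic lobe replicate 3 correlated at 0.848 on average with non-visual brain and at 0.83 with the other optic lobe libraries, and non-visual brain replicate 1 had the lowest mean correlation within its own tissue (0.843). The part of the label just before the library code is the same in all libraries, and the labels do not say what it marks. The library codes of ovary and fat body begin with ND and those of the brain parts do not. The labels do not say what the codes mark, and a difference between code series and the difference between ovary and brain cannot be told apart.

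More of the RPKM lay in a few genes in ovary than in brain. The 10 highest genes took 22.1, 52.2 and 28.1% of the RPKM in ovary replicates 1 to 3. In non-visual brain they took 9.32, 5.96 and 5.48%, and in optic lobe 6.41, 5.51 and 7.98%. No brain library reached the lowest ovary library. The difference of the means was -27.4 percentage points (brain minus ovary, exact two-sided permutation test of 6 against 3 libraries, p = 0.0238, the smallest this design allows, 0.0476 after Benjamini-Hochberg adjustment over 4 such tests). Without any 1 ovary library the smallest possible p is 0.0714, and the difference was between -33.4 and -18.3 percentage points over all single libraries left out. In ovary replicate 2 a single gene, HSALG004475.2, took 31.4% of the RPKM. Outside the comparison, the 10 highest genes took 39.2 to 46.6% in the retina libraries. They took 24.1 to 31.4% in fat body and 16.2 to 21.7% in antenna. A high share was thus not particular to ovary, and the brain libraries had the lowest shares of the series.

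Genes at 1 RPKM or more numbered 9535, 11374 and 11476 for non-visual brain, 11787, 11815 and 10697 for optic lobe, and 10312, 9271 and 9952 for ovary. The brain libraries lay higher except for non-visual brain replicate 1, which fell among the ovary libraries. The mean was 11114 ± 873 in brain (SD, n = 6) and 9845 ± 529 in ovary (SD, n = 3), and the difference of 1269 genes did not pass the exact permutation test (p = 0.0952, adjusted 0.127). It was 1240.5 with reads thinned to the shallowest library. Without non-visual brain replicate 1 the difference was 1585 genes (exact permutation p = 0.0357, the smallest that set allows, not adjusted). This library was singled out after its value was seen.

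**Figure D1:**
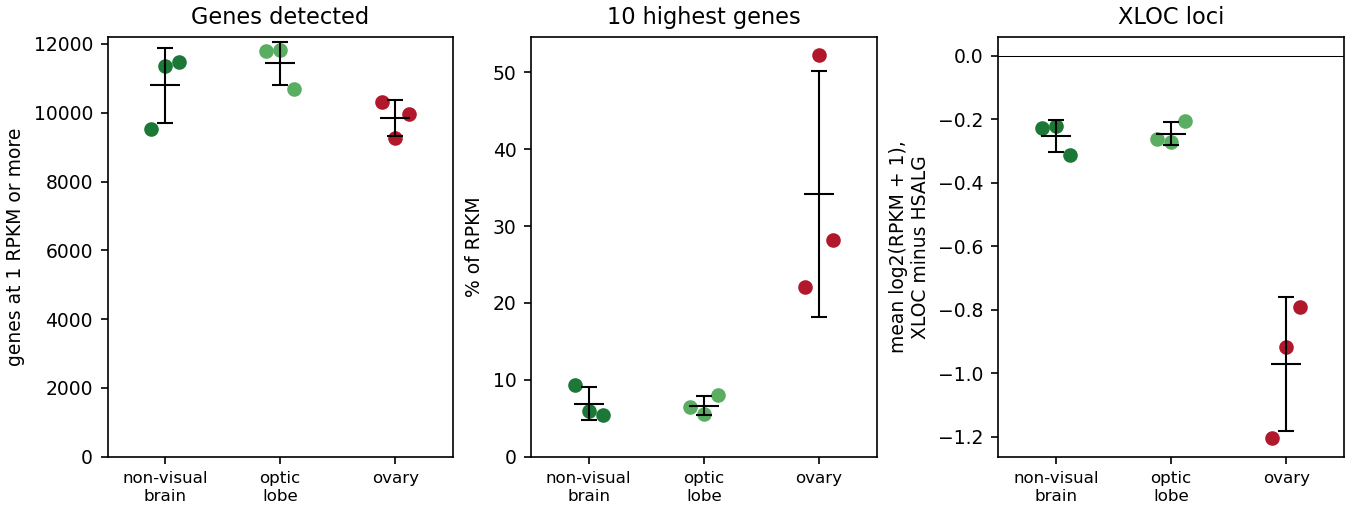
Number of genes at 1 RPKM or more, share of RPKM in the 10 highest genes (%), and mean log2(RPKM + 1) of XLOC loci minus that of HSALG models, for each of the 9 libraries by tissue. Points are libraries, and the bars give mean and SD (n = 3). The right panel covers only rows that passed the filter. The 3 ovary libraries lie above all brain libraries in the middle panel (22.1 to 52.2%) and below all of them in the right panel.

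In all, 1677 of the 12399 genes were higher in both brain parts than in ovary and 1219 were lower, which is 13.5% and 9.83% of the genes tested, 23.4% in all (limma on log2(RPKM + 1), the larger p of the brain parts, Benjamini-Hochberg adjusted under 0.05, at least 2-fold in each part). The differences were wide. Among genes higher in brain the median log2 difference was 2.72 for non-visual brain and 3.01 for optic lobe, against 0.06 and 0.31 over all genes tested. Among genes lower in brain it was -2.6 and -2.52. With genes that had no read on one side set to their bound, these medians were 2.8, 3.1, -2.82 and -2.64.

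By the smaller of the 2 differences, 1164 of the brain-higher genes (69.4%) were at least 4-fold and 249 (14.8%) at least 16-fold above ovary. Of the ovary-higher genes, 759 (62.3%) were at least 4-fold and 213 (17.5%) at least 16-fold above both brain parts. Of all genes tested, in either direction, 1959 (15.8%) were at least 4-fold and 464 (3.74%) at least 16-fold apart. The calls themselves select for wide differences. The smallest log2 differences among the calls were 1.1 and 1.01. Over all genes tested, the 6 brain libraries all lay above the 3 ovary libraries in 18.2% and all below in 14.5%, and 1642 brain-higher and 1198 ovary-higher genes showed this separation. At the threshold, the last gene called higher had an adjusted p of 0.0499 with log2 differences of 1.26 and 1.94, and the first not called 0.0501 with 2.28 and 2.32. The last gene called lower had 0.0499 with -3.04 and -3.94, and the first not called 0.0505 with -1.46 and -1.37.

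Direction depended in part on the scaling. Gene models held 29.6 to 37.4% of the library total in the brain libraries and 39.6 to 67.3% in the ovary libraries. The sum of RPKM was lower in every brain library than in every ovary library. Why a smaller share of the total lay in models in brain was not tested. As deposited, 57.9% of the calls were higher in brain. The share was 72.7% with libraries rescaled to the same sum of RPKM (2166 higher and 814 lower), which moved the median gene to 0.46 and 0.79 above ovary on the log2 scale. Trimmed-mean factors gave 48.3% (1658 and 1772) and quantile normalization 48.4% (1614 and 1718), where the median gene lay between -0.06 and 0.01. Without non-visual brain replicate 1 and optic lobe replicate 3, the libraries that stood apart, 2364 genes were higher and 1296 lower.

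**Figure D2:**
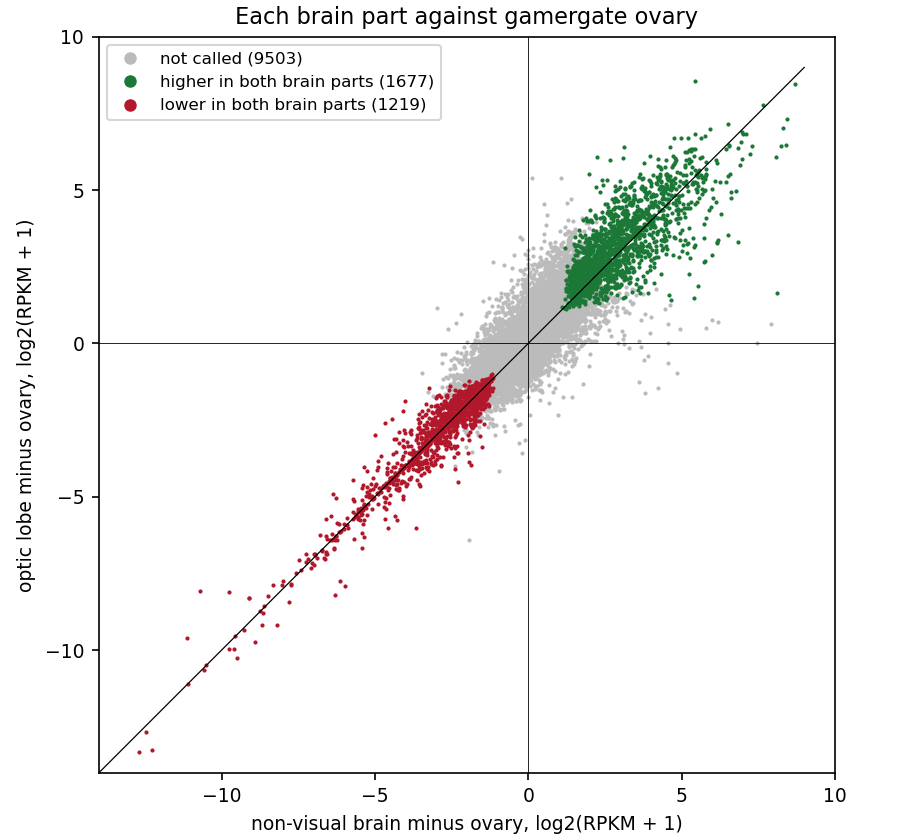
Difference from ovary in non-visual brain (x axis) and in optic lobe (y axis), each as log2(RPKM + 1), for the 12399 genes tested; the diagonal marks equal differences. Green points are the 1677 genes higher in both brain parts and red points the 1219 lower, which reach -12.7 and -13.33 for HSALG004475.2; both axes share the ovary libraries.

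Of the 1677 brain-higher genes, 104 (6.2%) had no read in any ovary library, against 372 (3%) of all genes tested. At 1 RPKM or more in all 3 ovary libraries were 589 of them (35.1%), against 71% of all genes tested. For the 104 genes, with 3 reads over the 3 ovary libraries together as the floor, the lower of the brain parts was at least 12.6-fold to at least 662-fold higher, and these genes had a median level of 7.08 RPKM in that brain part. Of the 1219 ovary-higher genes, 99 (8.12%) had no read in any of the 6 brain libraries, and these were all the genes tested (0.798%) without a brain read. At 1 RPKM or more in all 6 were 449 (36.8%), against 67.5% of all genes tested. The 99 genes were at least 5.47-fold to at least 32750-fold lower in the brain libraries together, with 3 reads over the 6 libraries as the floor. Through brain libraries alone 1962 genes passed the filter (15.8% of those tested), of which 703 were called higher in brain. Through ovary libraries alone 360 passed (2.9%), of which 342 were called lower, and the counts in this paragraph depend in part on this filter.

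The ovary-higher genes took 42.3, 66 and 46.6% of the RPKM in ovary replicates 1 to 3 and between 2.26 and 3% in the brain libraries. The brain-higher genes took 26.9 to 35.1% of the RPKM in brain and 1.24 to 1.93% in ovary. They included between 4 and 9 of the 10 highest genes of each brain library, and the ovary-higher genes 9 or 10 of the 10 highest of each ovary library. Of all genes tested, 13.5% were called higher and 9.83% lower. The genes were called on these same libraries, so these shares are a description and no test. In retina, outside the calls, the brain-higher genes took 42.7 to 51.3% of the RPKM, more than in any brain library. They took 15.3 to 30.2% in antenna and 5.87 to 6.86% in fat body. The ovary-higher genes took 4.91 to 5.86% in retina, 5.24 to 7.69% in antenna and 4.7 to 6.6% in fat body. Genes averaging under 5 RPKM over the 3 tissues were called less often than those at 20 to 100 RPKM. Of 3976 genes under 5 RPKM, 5.53% were called higher and 8.93% lower, against 20.8% and 12.9% of 2537 genes at 20 to 100 RPKM. Of 5484 genes at 5 to 20 RPKM, 15.4% were called higher and 8.73% lower. Lower calls were thus no fewer under 5 RPKM than at 5 to 20 RPKM. The log2(RPKM + 1) scale understates differences near 1 RPKM.

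HSALG004673.2 had the widest difference in favour of brain on the log2(RPKM + 1) scale, which damps the differences of genes at or near 0. Its model has 2880 coding bases. It stood at 1715, 1428 and 1837 RPKM in non-visual brain replicates 1 to 3, at 1466, 1102 and 1701 RPKM in the optic lobe, and at 6.94, 1.2 and 2.53 RPKM in the ovary. All brain libraries were far above all ovary libraries, and the brain parts overlapped. Its log2 difference from ovary was 8.71 for non-visual brain and 8.47 for optic lobe (SE 0.53 each, joint adjusted p = 1.32e-07, limma). In the tissues outside the comparison it reached 62.1 to 209 RPKM in antenna and 5.58 to 69.9 RPKM in retina.

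HSALG009892.2, of 888 coding bases, followed, and came first with a pseudocount of 0.1 (log2 differences of 9.17 and 9.3, against 9.16 and 8.92 for HSALG004673.2). Its levels were 204, 251 and 425 RPKM in non-visual brain, 405, 353 and 199 RPKM in optic lobe and 0.494, 0.374 and 0.307 RPKM in ovary, where 24 reads were recovered in all. Again no brain library came near an ovary library. The log2 differences were 7.65 and 7.78 (SE 0.42 each, joint adjusted p = 4.2e-08, limma), and the brain parts differed by -0.13, which did not pass the test (adjusted p = 0.933, limma).

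HSALG004475.2, of 3321 coding bases, had the widest difference in favour of ovary on the log2(RPKM + 1) scale. It reached 23821, 130006 and 14408 RPKM in ovary replicates 1 to 3, between 3.58 and 31.4% of all RPKM there. In non-visual brain it stood at 12.8, 1.07 and 4.27 RPKM and in optic lobe at 2.37, 0.796 and 5.7 RPKM. The ovary libraries differed widely among themselves and still lay far above every brain library. The log2 differences were -12.7 and -13.33 (SE 0.81 each, joint adjusted p = 1.34e-07, limma).

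HSALG024994.1, of 546 coding bases, was at 19298, 17719 and 40373 RPKM in ovary, at 12.1, 1.33 and 1.59 RPKM in non-visual brain, and at 1.27, 0.415 and 14.5 RPKM in optic lobe. The groups did not overlap, and the log2 differences were -12.45 and -12.67 (SE 0.81 each, joint adjusted p = 1.51e-07, limma). Its highest brain values were those of non-visual brain replicate 1 and optic lobe replicate 3, the libraries that stood apart. Whether traces of ovary RNA gave the reads in brain was not tested. In antenna replicate 2 both ovary genes were higher than in any brain library, at 1049 and 1188 RPKM.

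**Figure D3:**
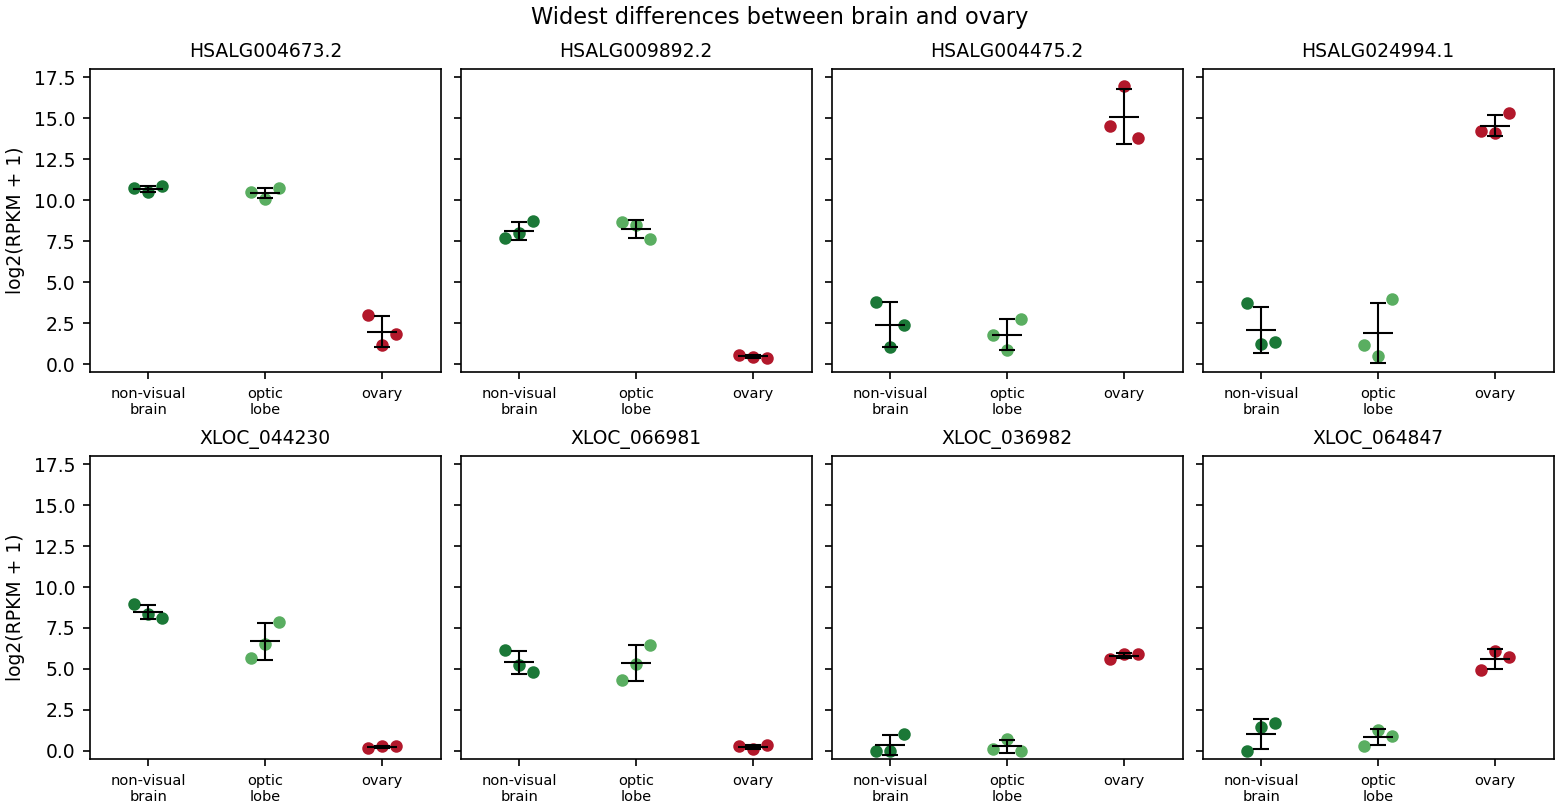
Level as log2(RPKM + 1) of the 2 HSALG genes and 2 XLOC loci with the widest difference in each direction on that scale, by tissue; genes without a read on one side can have wider ratios. Points are libraries and bars give mean and SD of the log2 values (n = 3). In all 8 panels the 6 brain libraries lie on one side of the 3 ovary libraries, and HSALG004475.2 reaches 130006 RPKM in ovary replicate 2.

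Rows with XLOC identifiers, a second identifier series in the deposited table, leaned towards the brain. Of 343 tested, 104 (30.3%) were higher in both brain parts and 25 (7.29%) lower, while of 12056 HSALG models 1573 (13%) were higher and 1194 (9.9%) lower. The median XLOC locus was 0.88 above ovary for non-visual brain and 1.21 for optic lobe on the log2 scale, against 0.04 and 0.29 for HSALG models. To compare libraries without the fit, mean log2(RPKM + 1) of tested XLOC loci minus that of tested HSALG models was taken per library. The measure was chosen after the data were seen. Of all genes tested, 1962 passed the filter through brain libraries alone and 360 through ovary libraries alone. This was not split by identifier series, so the shares above and the p-value below can depend in part on the filter. The measure was -0.23, -0.22 and -0.31 for non-visual brain and -0.26, -0.27 and -0.2 for optic lobe. In ovary it was -1.2, -0.92 and -0.79. No brain library overlapped with an ovary library. The difference was 0.72 (brain minus ovary, exact two-sided permutation test of 6 against 3 libraries, p = 0.0238, the smallest this design allows, adjusted 0.0476 over 4 tests). It ran from 0.61 to 0.81 with single libraries left out, where leaving out an ovary library puts the smallest p at 0.0714. In the tissues outside the comparison the same measure was between -0.3 and 0.13 in antenna, between -0.57 and -0.21 in retina and between -0.51 and -0.46 in fat body. XLOC loci that overlap a coding gene could share its reads, because the libraries kept no strand.

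XLOC_044230 led the loci higher in brain. This locus of 618 bases stood at 498, 328 and 277 RPKM in non-visual brain, at 49, 92.7 and 234 RPKM in optic lobe and at 0.142, 0.215 and 0.22 RPKM in ovary, where 8 reads were recovered. Every brain library lay above every ovary library, and the log2 differences were 8.23 and 6.44 (SE 0.5 each, joint adjusted p = 5.1e-07, limma). Non-visual brain was above optic lobe in each library, by 1.79 on the log2 scale, which did not pass the test (adjusted p = 0.1, limma, and 0.0131 to 0.504 under the alternatives). XLOC_066981, of 1338 bases, averaged 45.1 ± 23.3 RPKM (non-visual brain), 48.6 ± 36.2 (optic lobe) and 0.186 ± 0.0974 in ovary (SD, n = 3 each), with log2 differences of 5.17 and 5.12 (SE 0.54 each, joint adjusted p = 6.73e-06, limma).

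On the other side, XLOC_036982, of 894 bases, was at 48.6, 58.9 and 57.9 RPKM in ovary. It was listed at 0 in 3 of the 6 brain libraries and reached at most 1.05 RPKM in the others (log2 differences -5.46 and -5.54, SE 0.48 each, joint adjusted p = 1.28e-06, limma). XLOC_064847, of 912 bases, averaged 50.2 ± 19 RPKM in ovary, 1.31 ± 1.16 (non-visual brain) and 0.833 ± 0.569 (optic lobe) (SD, n = 3 each), with log2 differences of -4.56 and -4.78 (SE 0.56 each, joint adjusted p = 2.53e-05, limma). These ovary levels are close to each other and vary little between libraries for XLOC_036982, and more for XLOC_064847.

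Taken alone, the brain parts gave longer lists, and both shared the ovary libraries. In non-visual brain 2133 genes were higher than in ovary (17.2%) and 1705 lower (13.8%). In optic lobe 2984 were higher (24.1%) and 1704 lower (13.7%). The longer list of the optic lobe stood beside a median gene that was 0.31 above ovary there and 0.06 in non-visual brain. A call in 1 part alone was reached by 328 higher and 371 lower genes in non-visual brain and by 1180 higher and 369 lower genes in optic lobe. Of these 2248 genes, 136 differed between the brain parts by the test of that difference, against 193 of all 12399 tested (1.56%). A call in 1 part alone selects for a gap between the parts in the same libraries, so this count is a description.

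Between the brain parts themselves, 193 of 12399 genes differed (1.56%), 72 of them higher in non-visual brain (0.581%) and 121 higher in optic lobe (0.976%). Among the 2896 genes called against ovary, which rest on the same brain libraries, 48 differed between the parts. Of these, 45 belonged to the brain-higher genes (20 higher in non-visual brain, 25 in optic lobe) and 3 to the ovary-higher genes. The median size of the difference between the parts was 0.56 on the log2 scale among brain-higher genes, 0.23 among ovary-higher genes and 0.48 over all genes. Ovary-higher genes had medians of 0.548 to 1.71 RPKM in non-visual brain and 1.31 to 1.53 in optic lobe. At such levels log2(RPKM + 1) understates differences, so their 0.23 does not show that the parts were alike. The count of 48 was sensitive to single libraries. It was 17 without non-visual brain replicate 2, 22 without replicate 3, 17 and 13 without optic lobe replicates 1 and 2, 96 without optic lobe replicate 3 and 20 without ovary replicate 3. Without both libraries that stood apart it was 181.

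HSALG013198.2, of 633 coding bases, showed the widest difference between the parts on the log2(RPKM + 1) scale among the genes called against ovary. It stood at 547, 453 and 189 RPKM in non-visual brain, at 1.26, 3.34 and 5.76 RPKM in optic lobe and at 0.485, 0.315 and 0.108 RPKM in ovary. The 3 tissues formed separate steps with no overlap. The log2 difference from ovary was 8.13 for non-visual brain and 1.65 for optic lobe (SE 0.51 each, joint adjusted p = 0.0302, limma). Between the brain parts it was 6.48 (adjusted p = 2.37e-05, limma). HSALG027998.1, of 525 coding bases, averaged 109 ± 19.9 RPKM (non-visual brain), 7.78 ± 6.74 (optic lobe) and 1.59 ± 0.337 in ovary (SD, n = 3 each), and the parts differed by 3.91 (SE 0.51, adjusted p = 0.00105, limma). Its call against ovary was close to the threshold (joint adjusted p = 0.0465, limma). The call against ovary was lost under 14 of 21 alternatives for HSALG013198.2 (adjusted p from 0.00554 to 0.311) and under 15 of 21 for HSALG027998.1 (0.0101 to 0.367).

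In the other direction, HSALG007314.2, a model of 2462 bases, was at 108, 103 and 44.6 RPKM in optic lobe, at 2.76, 4.73 and 7.22 RPKM in non-visual brain and at 0.285, 0.108 and 0.166 RPKM in ovary. Here too the tissues did not overlap. Its difference between the parts was -3.84 (non-visual brain minus optic lobe, SE 0.49, adjusted p = 0.000914, limma), and it was above ovary by 2.25 and 6.08 (joint adjusted p = 0.00326, limma). HSALG027576.1, of 606 coding bases, had no read in ovary and averaged 3.09 ± 1.08 RPKM (non-visual brain) and 47.7 ± 18.3 (optic lobe) (SD, n = 3 each). With 3 reads over the ovary libraries as the floor it was at least 42.2-fold higher in non-visual brain and at least 651-fold higher in optic lobe (joint adjusted p = 0.00633, limma). Its parts differed by -3.53 (SE 0.48, adjusted p = 0.00135, limma). Under 1 of 21 alternatives, a pseudocount of 5, the calls against ovary of HSALG007314.2 (joint adjusted p = 0.0934, limma) and HSALG027576.1 (0.171) were lost.

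Passing the threshold against ovary in opposite directions was limited to 3 of the 12399 genes. HSALG012652.2, of 510 coding bases, was at 33.6, 87.5 and 59.5 RPKM in non-visual brain, at 0.417, 0 and 0 RPKM in optic lobe and at 2.41, 0.913 and 3.34 RPKM in ovary. The ovary thus lay between the brain parts without overlap. The log2 difference from ovary was 4.23 in non-visual brain (adjusted p = 2.03e-05, limma) and -1.44 in optic lobe (adjusted p = 0.04, limma), and the parts differed by 5.67 (SE 0.52, adjusted p = 4.86e-05, limma). HSALG021494.1, of 198 coding bases, was at 8.33, 10.1 and 4.14 RPKM in optic lobe, at 0, 0 and 0.338 RPKM in non-visual brain and at 3.77, 2.02 and 1.03 RPKM in ovary, with 32 reads in the ovary libraries together. Its parts differed by -2.88 (SE 0.49, adjusted p = 0.00623, limma). The third gene, HSALG006979.2, named after its values were seen, had mean levels of 28.3 RPKM (non-visual brain), 2.39 RPKM (optic lobe) and 10.4 RPKM (ovary). The smaller of the opposite differences was lost under 9 of 21 alternatives for HSALG012652.2 (adjusted p from 0.00312 to 0.297). For HSALG021494.1 the optic lobe call was lost under 12 of 20 (0.0057 to 0.166) and the non-visual brain call under 9 of 20 (0.00377 to 0.137).

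**Figure D4:**
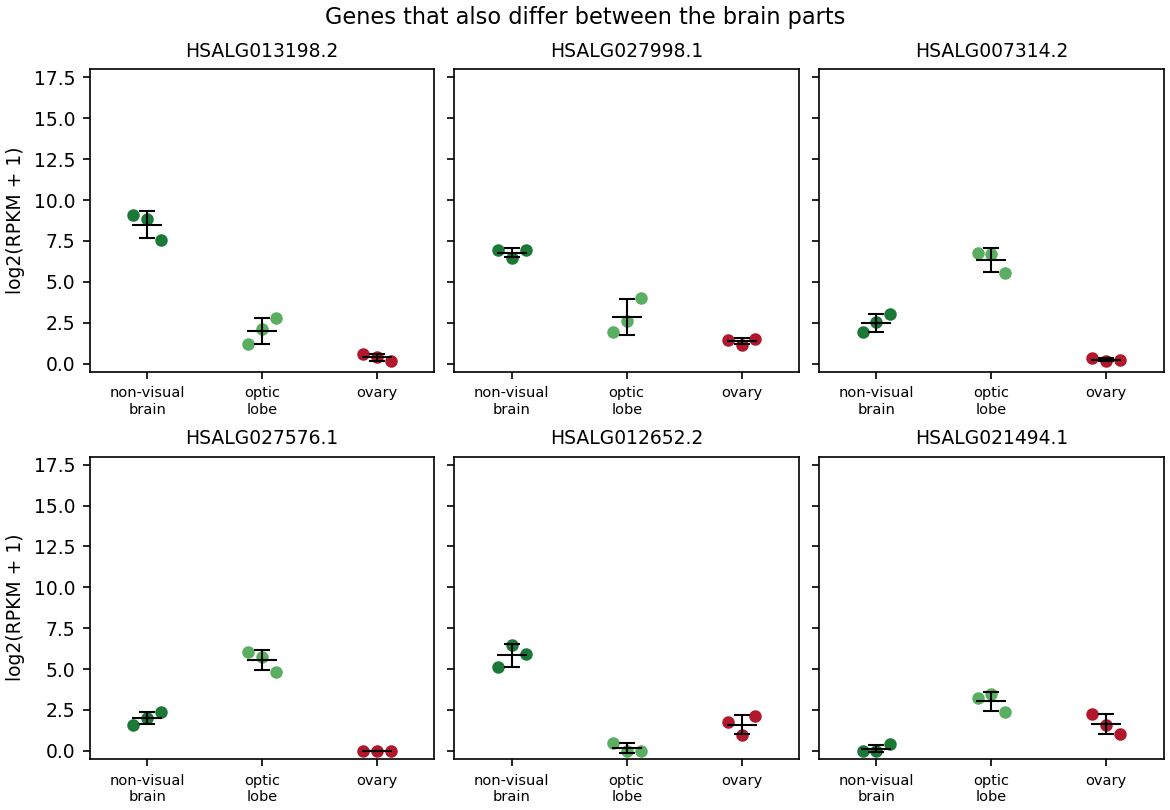
Level as log2(RPKM + 1) by tissue for the 4 genes with the widest differences between the brain parts among those called against ovary and for 2 of the 3 genes past the threshold in opposite directions. Points are libraries and bars give mean and SD of the log2 values (n = 3); in HSALG012652.2 and HSALG021494.1 the ovary lies between the brain parts.

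The libraries of retina, antenna and fat body, all from workers, took no part in the calls. The antenna libraries were the shallowest, with 2.37 to 4.73 M reads. Genes higher in brain had a median level of 14.7 to 19.8 RPKM in the non-visual brain libraries and 16.6 to 23.2 RPKM in optic lobe. In antenna the median was 4.16 to 8.31 RPKM, in retina 2.67 to 3.89, in fat body 1.08 to 1.29 and in ovary 0.551 to 1.19 RPKM. Over all genes tested it was 1.09 to 4.99 RPKM in antenna, 2.05 to 3.37 in retina and 1.55 to 2.79 in fat body. In each antenna and each retina library the median of the brain-higher genes was above that of all genes tested, and in each fat body library below it. In retina the medians were 3.89 against 3.37, 3.33 against 3.27 and 2.67 against 2.05 RPKM in replicates 1 to 3.

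Genes higher in ovary had a median of 18.7 to 31.2 RPKM in ovary, 0.548 to 1.71 in non-visual brain, 1.31 to 1.53 in optic lobe, 1.18 to 1.86 in retina, 0 to 0.706 in antenna and 0.523 to 2.13 RPKM in fat body. They lay below the median of all genes tested in every worker library. Of the brain-higher genes, 1438 (85.7%) had their highest tissue mean of the 6 tissues in a brain part, 125 in antenna, 76 in retina and 38 in fat body. Of the ovary-higher genes, 1066 (87.4%) were highest in ovary, 78 in fat body, 43 in retina and 32 in antenna. Over all genes tested 48.9% were highest in a brain part and 31.4% in ovary, and the calls fix part of this ranking.

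Among the brain-higher genes, 12 were at least 10 times higher in retina than in either brain part, 11 in antenna and 4 in fat body, 19 of 1677 genes in all. Among the 12399 genes tested the counts were 280, 315 and 339, and 568 in all. HSALG012315.1, named after its values were seen, took 13 to 18.5% of the RPKM in retina, where the other brain-higher genes took 29.6 to 32.8%. It was at 286, 140 and 500 RPKM in non-visual brain, at 584, 411 and 780 RPKM in optic lobe, at 10.4, 1.74 and 1.84 RPKM in ovary and at 59011, 76038 and 37152 RPKM in retina. All brain libraries were above the ovary and far below the retina libraries. In antenna it reached 277, 1293 and 23317 RPKM. The log2 differences from ovary were 5.93 and 7 (joint adjusted p = 4.39e-06, limma), and whether traces of retina RNA in the brain libraries set them was not tested.

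**Figure D5:**
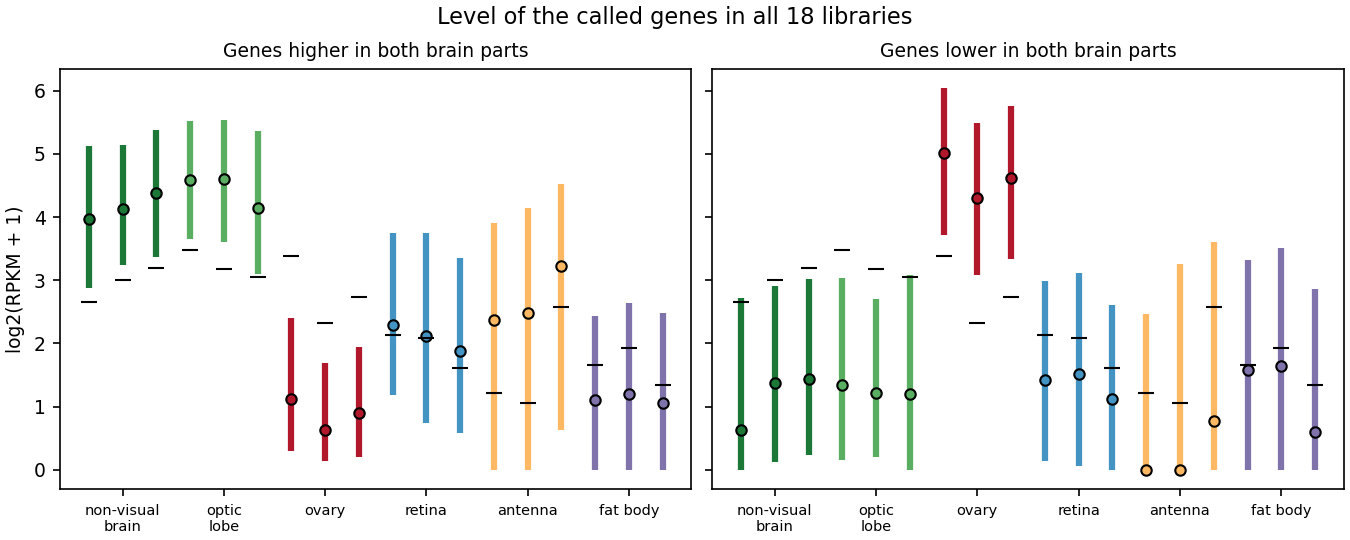
Median (circle) and interquartile range (bar) of log2(RPKM + 1) in each of the 18 libraries, for the 1677 genes higher (left) and the 1219 lower (right) in both brain parts; black dashes mark the median of all 12399 genes tested. Outside the compared tissues the brain-higher genes lie above the dashes in the antenna and retina libraries (closely so in retina) and below them in fat body, and the ovary-higher genes lie below them in all 15 worker libraries.

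Coding length was recovered for every gene tested. HSALG genes higher in brain had a median of 1005 coding bases (interquartile range 498 to 1836), those lower in brain 1059 (611 to 1682) and all HSALG models tested 990 (513 to 1785). By length class, the share of brain-higher genes stayed between 12.2 and 14.2%. The share of ovary-higher genes was 7.79% of models under 500 bases, 12.4% of those from 1000 to 2000 and 5.75% of the 661 models of 4000 bases or more. The mean log2 level of models of 4000 bases or more minus that of models under 1000 was -0.25 to 0.5 in the brain libraries and -0.47 to 0.36 in the ovary libraries. These ranges overlapped, and the difference of 0.25 (brain minus ovary) did not pass the exact permutation test (p = 0.381, adjusted 0.381).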

How the data were processed

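Polyadenylated RNA was sequenced without strand, per the labels. The authors deposited RPKM, reads scaled by gene model length and library total, with 1 column per library and no pooling. STAR 2.5.0b and DESeq2 are named without a role, per the submitters' processing notes; no source used here gives the build, annotation or counting. Reads shared by near-identical copies, or by a gene and its antisense partner, cannot be separated.

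The deposited RPKM went as log2(RPKM + 1) into 1 limma fit of the 9 libraries (limma 3.58.1, trended prior variance, R 4.3.3). The joint p was the larger of the one-sided p-values of the brain parts, doubled, with Benjamini-Hochberg adjustment over 12399 genes. On this scale differences of genes near 1 RPKM are understated. Single values per library had exact permutation tests. Lengths, totals and reads were recovered from the steps of the RPKM for 16190 rows, including all 12399 tested; 99.99% of their values above 0 were whole reads within rounding at 6 digits and a further relative tolerance of 1.5e-06, and 98.1% of HSALG lengths were multiples of 3. Recovery and fit were tested on data simulated from the levels of these libraries. The planted differences were 16-fold, so smaller ones near the threshold were not covered.

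Up to 2 identifiers per direction and comparison were named: the widest log2 differences without overlap between libraries. Comparison, members and lists were chosen with earlier results of these data known. The planned gene lists need gene names and could not be applied. Alternatives covered pseudocount, filter, scaling, fit, replicate block, voom on recovered reads, minimum fold and single libraries left out.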

Additional observations from a re-analysis of the deposited data

Results flagged for a closer look

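Effects against ovary that differ between the brain parts, by limma's test of the difference itself, were found in 193 genes. That count depended on the processing and on single libraries. In 3 genes the effects passed the threshold in opposite directions. The log2 difference non-visual brain minus optic lobe was 6.48 in HSALG013198.2, 3.91 in HSALG027998.1, -3.84 in HSALG007314.2 and -3.53 in HSALG027576.1, all called against ovary in the same direction in both parts. It was 5.67 in HSALG012652.2 and -2.88 in HSALG021494.1, where the parts lay on opposite sides of ovary. No group had the 4 libraries needed to look for single outlying values.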

How the results depend on the processing

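Over the alternatives run, the counts of genes higher or lower in both brain parts stayed within 1.5 times the reported ones. With single libraries left out, 1251 to 1987 genes were higher and 936 to 1304 lower in both parts, 1643 to 2491 higher and 1251 to 1888 lower in non-visual brain, and 2208 to 3354 higher and 1200 to 1847 lower in optic lobe. Beyond that, rescaling to the same sum gave 1081 genes lower in non-visual brain and 1074 lower in optic lobe, and quantile normalization 2591 lower in optic lobe; the cause was not tested. The 48 called genes that also differ between the brain parts became 20 with a pseudocount of 0.1, 27 without a filter, 90 with quantile normalization, 27 with all 18 libraries in the fit, 19 with the replicate block, 181 without the libraries that stood apart (an alternative chosen after seeing the data) and 13 to 96 without single libraries. Under the replicate block 1515 genes were higher and 1127 lower in both parts. Same-numbered libraries deviated together (r over 0.1) in 3 of 9 pairs and 3 of 9 libraries were closest to one of their own number. This showed no pairing by number, but so few libraries cannot exclude that same-numbered ones shared animals. Voom on recovered reads called 1758 higher (1581 of the 1677) and 1155 lower (1113 of the 1219). With single libraries left out, brain-minus-ovary differences were 982 to 1585 genes detected, -33.4 to -18.3 percentage points in the 10 highest genes, 0.61 to 0.81 for XLOC minus HSALG and 0.11 to 0.52 for long minus short models. Brain-higher genes took 25.6 to 30.1% of brain RPKM on average and ovary-higher genes 46.4 to 53.1% of ovary RPKM. Of the 14 genes chosen by the naming rule none changed direction, and the 8 with the widest differences on the log2(RPKM + 1) scale kept their calls under all 21 alternatives. HSALG006979.2 and HSALG012315.1, named outside that rule, were not recomputed. Depth limits the lowest genes: 3 reads at 1000 bases were worth up to 0.273 RPKM.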

Other observations

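The 20 ovary-higher genes with a mean of 1000 RPKM or more in ovary were found at low levels in many worker libraries. Their median level, as a share of the ovary mean, was 2.11% in antenna replicate 2, 0.579% in antenna replicate 3, 0.254% in fat body replicate 1 and 0.233% in fat body replicate 3. In the brain libraries it was between 0 and 0.0402%, highest in optic lobe replicate 3.

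Among models at 20 to 100 RPKM over the 3 tissues, 25 of 77 models of 4000 coding bases or more (32.5%) were higher in both brain parts and 2 lower, and of 1273 models under 1000 bases 248 (19.5%) were higher and 155 lower. Among models at 5 to 20 RPKM the share higher was 14.9% of 409 long and 17.4% of 2107 short models. The share lower was 4.16% of the long and 9.11% of the short models there. Under 5 RPKM, 3.49% of 172 long models were higher and 11% lower, against 5.08% and 7.16% of 2403 short models. At 100 RPKM or more only 3 long models were tested. The length classes and level tiers were chosen after the data were seen, and no test was made of them.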
